A study of Mus musculus with 4 samples.

Results

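Imprinted long noncoding RNAs are transcripts that are made from the copy of a chromosome inherited from one parent and that code for no known protein. The 7 genes H19, Peg13, Airn, Rian, Meg3, Mirg and Kcnq1ot1 were taken by name from a deposited table of 55573 genes, and all 7 had a row in it. Their values came from ribosome profiling, which sequences the RNA fragments that ribosomes shield from a nuclease. The samples were 4 libraries of primary mouse myoblasts, the dividing precursors of muscle cells, of which 2 were labelled WT and 2 were labelled KO for the translation factor eIF5A. Polysome-Seq is the name in the sample titles, but RNase I digestion and recovery of protected fragments are what the extraction protocol sets out.

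The cells came from hind-limb muscle of 3-week-old mice on the C57BL/6j background and were collected on day 2 of proliferation in medium with 10 µg/ml FGF. All 4 cultures received 100 µg/ml cycloheximide, a drug that holds ribosomes on RNA. KO mice carried Pax7 CreERT2/+ and eIF5A f/f and had received tamoxifen, so that deletion was limited to cells in which the Pax7 promoter, active in satellite cells, had driven Cre. The WT mice were littermates whose genotype the sources give in 2 different ways, either as Pax7 CreERT2/+ or as Pax7 +/+ with eIF5A f/f. Nothing in the labels says that replicates came from separate animals or cultures, and p-values therefore measure only the spread between these libraries. The labels name no batch.

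The targeted gene, Eif5a, read 34.9 and 65.2 RPKM (read numbers divided by the length of the gene and by a library size) in WT libraries 1 and 2. It read 60.3 and 59.4 RPKM under the KO label, both within the range of the WT values, so the groups are named by their labels below. Whether these reads lay in the deleted exons was not examined. Recovered reads ranged from 642429 to 704006 per library. MicroRNA genes held 4.30% and 16.8% of the reads in WT libraries 1 and 2, against 2.31% and 2.85% in the libraries labelled KO. All 15 myoblast markers had reads, with summed levels of 243 to 405 RPKM under the WT label and 151 to 162 RPKM under the KO label. All 8 endothelial markers also had reads, with summed levels of 120 to 130 RPKM and 145 to 171 RPKM. The 12 fibroblast markers all had reads. They summed to 565 and 386 RPKM in the WT libraries and 966 and 451 RPKM in the KO libraries, above the myoblast sum in every library. Of these sums the single gene Dcn (decorin) gave 240, 126, 460 and 171 RPKM. The lists also differ in length, so the sums do not rank cell types. The immune list of 7 genes, 1 of them at 0, summed to 45.7 and 60.6 RPKM in the WT libraries and 56.9 and 49.5 RPKM in the KO libraries. None of the tested markers of these lists passed the limma test (smallest adjusted p = 0.506), and the part of such shifts in the values below was not tested.

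Imprinted long noncoding RNAs work in several known ways. H19, made from the maternal copy, is abundant in embryonic and regenerating muscle, lies beside the paternally expressed growth factor gene Igf2, and is the precursor of the microRNA miR-675. Meg3, Rian and Mirg lie one after another in the maternally expressed Dlk1-Dio3 domain, where Rian hosts box C/D small nucleolar RNAs (snoRNAs, which guide chemical marks on other RNAs) and Mirg hosts a large cluster of microRNAs. Kcnq1ot1 and Airn are paternally expressed RNAs that silence neighbouring genes on their own chromosome, among them Cdkn1c and Igf2r, and Peg13 is a paternally expressed RNA within the Trappc9 gene. A read on such a gene can come from a ribosome on the long RNA, from another particle that protects RNA, or from a small RNA cut from the same transcript, and these sources cannot be told apart in gene-level values.

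Sequences of small RNAs annotated at these loci are shown here for reference. They are from RefSeq on GRCm38.p6, which held 25 of the 26 microRNA genes inside or within 5 kb of the 7 genes. The hairpin of Mir675 (chr7:142577064-142577147, minus strand, 84 bases) lay wholly inside exon 1 of the longest annotated H19 transcript, at bases 997 to 1080 of its 2286. It was found in 3 of the 7 annotated H19 transcripts. In the hairpin the capitals mark the 2 mature arms.
Mir675 hairpin: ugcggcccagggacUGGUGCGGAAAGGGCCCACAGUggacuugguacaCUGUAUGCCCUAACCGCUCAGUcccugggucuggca
In the mature microRNAs that follow, the capitals mark the seed, bases 2 to 8, which pairs with target RNAs. The set holds both arms of Mir675 and of the microRNA genes of the Rian and Mirg loci with more than 2 reads, and of Mir381, which lies 2868 bases before Mirg.
mmu-miR-675-5p: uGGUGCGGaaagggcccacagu
mmu-miR-675-3p: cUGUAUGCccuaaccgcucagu
mmu-miR-370-5p: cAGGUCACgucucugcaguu
mmu-miR-370-3p: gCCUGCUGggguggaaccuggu
mmu-miR-381-5p: aGCGAGGUugcccuuuguauauu
mmu-miR-381-3p: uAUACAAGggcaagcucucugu
mmu-miR-541-5p: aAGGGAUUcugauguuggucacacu
mmu-miR-541-3p: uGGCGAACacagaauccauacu
mmu-miR-382-5p: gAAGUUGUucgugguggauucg
mmu-miR-382-3p: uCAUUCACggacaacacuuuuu
mmu-miR-369-5p: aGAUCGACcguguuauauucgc
mmu-miR-369-3p: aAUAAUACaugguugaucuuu
None of the sequences printed here share a seed. Among the 45 mature sequences of the 25 genes, 1 seed was shared, GGUUGCC, by miR-496a-5p and miR-453. The gene-level values do not say which arm a read came from.

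The 7 long RNAs held 585 reads over the 4 libraries, and H19 alone held 447 of them, 76.4%. WT library 1 carried this share, since without it H19 held 71 of 153 reads, 46.4%. Per kilobase, H19 was the highest of the 7 and ranked 17 of 10209 long noncoding RNA genes by its mean RPKM, of which 1882 had any read. Without WT library 1 its mean fell from 74.1 to 14.3 RPKM and its rank to 40. Over all 4 libraries Peg13 ranked 97, Airn 391, Rian 885, Meg3 1268, Mirg 1270 and Kcnq1ot1 1616. Without WT library 1 Peg13 ranked 198, Airn 578, Rian 851, Mirg 977, Meg3 1342 and Kcnq1ot1 1407, so that Mirg then stood above Meg3. H19 and Peg13 were the only 2 of the 7 with a mean of at least 1 RPKM, the limit for testing, so the other 5 are given as values without a test.

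**Figure D1:**
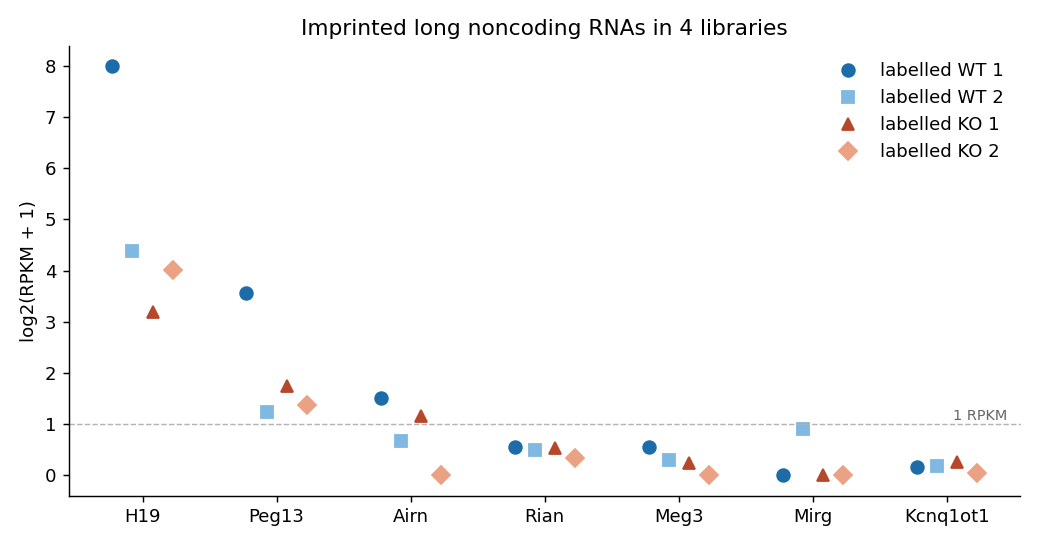
Level of each of the 7 imprinted long noncoding RNAs, as log2(RPKM + 1), in each of the 4 libraries (1 point per library, genes ordered by mean RPKM, dashed line at 1 RPKM). H19 in WT library 1 stands at 7.99, far above the 3.18 to 4.38 of the other 3 libraries.

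H19 (chr7:142575529-142578143, GRCm38, minus strand) is the noncoding RNA named above beside Igf2. It read 253.5 RPKM in WT library 1 and 19.8 RPKM in WT library 2, against 8.07 and 15.1 RPKM in KO libraries 1 and 2. Behind these levels stood 376 reads in WT library 1 (exact Poisson 95% interval 339 to 416), 23 in WT library 2 (14.6 to 34.5), 18 in KO library 1 (10.7 to 28.4) and 30 in KO library 2 (20.2 to 42.8). WT library 1 was high and the other 3 libraries lay close together. In RPKM the groups did not overlap, as was so, with both WT values above both KO values, for 20.3% of the 11363 tested genes.

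The group means of H19 were 136.7 ± 165 RPKM (SD, n = 2) under the WT label and 11.6 ± 4.97 RPKM (SD, n = 2) under the KO label, so the spread between the WT libraries was as large as the difference. In limma on log2(RPKM + 1) the log2 fold change was -2.59 (SE 1.15), with an unadjusted p of 0.0660 and a Benjamini-Hochberg adjusted p of 0.676 over all tested genes. That fit called 0.106% of the tested genes, 11 lower and 1 higher under the KO label, and H19 was not among them. Without WT library 1 the log2 fold change of H19 was -0.79 (limma adjusted p = 0.660), and without WT library 2 it was -4.40 (limma adjusted p = 0.309). Over all alternatives the adjusted p from limma ran from 0.190 to 0.944. WT library 1 was 21.9-fold above the mean of the KO libraries, and WT library 2 was 1.71-fold above it. Fewer cells with much H19 and less H19 per cell cannot be told apart in such bulk libraries.

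The order of the lower 3 libraries also turned on the scale. Scaled to the recovered reads of each library, H19 came to 580 and 35.8 RPM (reads scaled to the library alone) in the WT libraries and to 25.6 and 46.1 RPM under the KO label, so that WT library 2 fell below KO library 2. As a part of all reads on long noncoding RNA genes, H19 took 46.5 and 5.03 per 1000 in the WT libraries and 2.20 and 6.04 per 1000 in the KO libraries. The groups overlapped on both of these scales, and WT library 1 stayed the highest on each.

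The gap between the 2 WT libraries was large for H19 beside other genes. Its ratio of WT library 1 to WT library 2 was 12.8, whereas the median ratio of the 3578 genes with at least 100 reads was 0.987, and only 7 of those genes had a ratio at least as high. WT library 1 held 84.1% of the H19 reads and 24.5% of all recovered reads. The 3 genes whose profile over the 4 libraries was nearest to that of H19, by Euclidean distance of centred log2(RPKM + 1) among 3577 genes, were all snoRNA genes, namely Snord71 (distance 1.19), Gm26202 (1.23) and Snord49a (1.35). Snord71 had 124 and 16 reads in the WT libraries and 21 and 20 reads in the KO libraries.

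Other classes were also high in WT library 1. All snoRNA genes together held 0.975% of the reads in that library and 0.349%, 0.249% and 0.353% in WT library 2 and KO libraries 1 and 2, and 24 of the 32 snoRNA genes with at least 100 reads were highest there. Of the 30 long noncoding RNA genes with at least 100 reads, 14 were highest there, with a median ratio of WT library 1 to WT library 2 of 1.11 beside 2.45 for the snoRNA genes. The 15 markers of differentiating muscle summed to 321 and 76.0 RPKM in WT libraries 1 and 2, against 45.8 and 43.6 RPKM under the KO label. Most of the sum in WT library 1 came from Acta1 (129 RPKM), Myog (91.0 RPKM) and Actc1 (63.6 RPKM). Ckm and Tnnc1 were higher in WT library 2 than in WT library 1, and Mymk and Mymx had reads only in KO library 1. Of these 15, Tnnc2 was at 0 throughout, and none of the 9 tested passed the limma test at an adjusted p under 0.05, with the smallest adjusted p at 0.608. Myog, a transcription factor of muscle differentiation, had 82 and 3 reads in the WT libraries and 1 and 2 in the KO libraries. Myog is also on the myoblast list, so it counts in both sums. The part of these shifts in the H19 values was not tested.

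**Figure D2:**
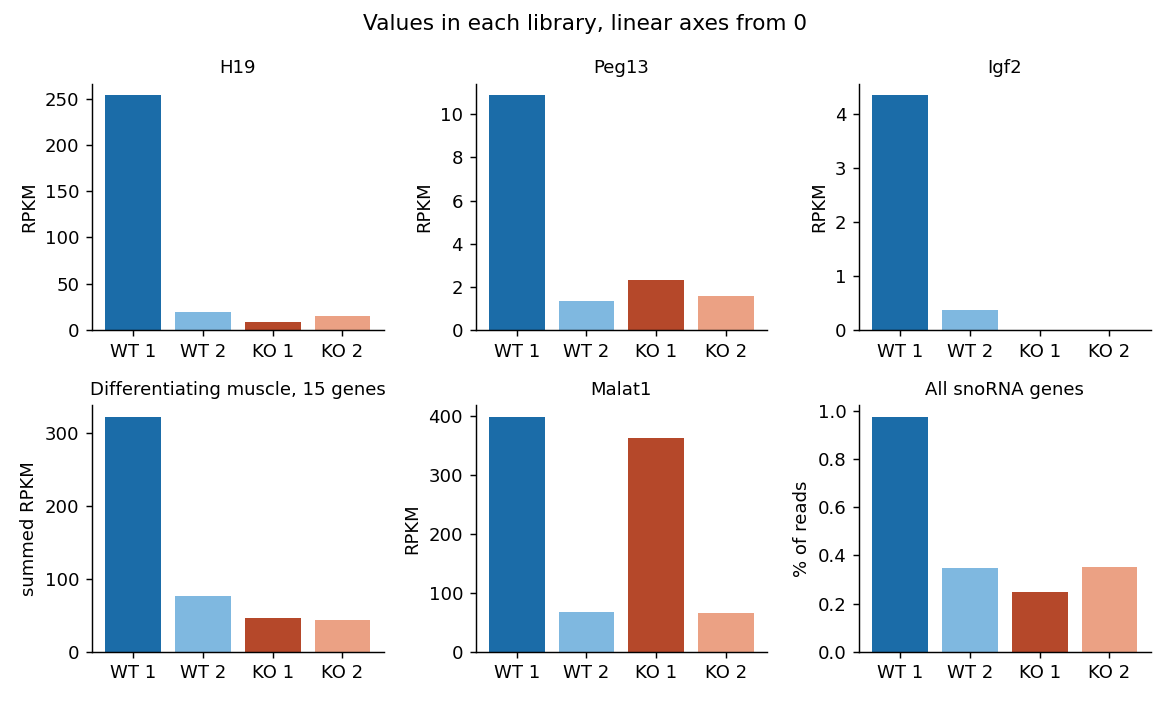
Bars give the value in each library on linear axes from 0 for H19, Peg13, Igf2 and Malat1 (RPKM), for the sum of 15 differentiating muscle markers (RPKM) and for all snoRNA genes (percent of recovered reads). WT library 1 is the highest bar in every panel, while for Malat1 KO library 1 is nearly as high (399 and 363 RPKM).

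Igf2, the reciprocally imprinted neighbour of H19, had 15 and 1 reads in the WT libraries and 0 in both libraries labelled KO. It was 4.35 and 0.371 RPKM under the WT label and listed at 0 under the KO label, and it did not pass the limma test (adjusted p = 0.698). Its reads, like those of H19, sat mostly in WT library 1.

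Peg13 (chr15:72805600-72810324, minus strand), the RNA from within the span of Trappc9, read 10.9 and 1.35 RPKM in the WT libraries and 2.33 and 1.57 RPKM in the KO libraries, from 31, 3, 10 and 6 reads. WT library 1 was again the highest and WT library 2 the lowest, so the groups overlapped. It averaged 6.12 ± 6.74 RPKM (SD, n = 2) under the WT label against 1.95 ± 0.538 RPKM (SD, n = 2) under the KO label, and the limma log2 fold change was -0.85 (SE 0.79, adjusted p = 0.732). Without WT library 1 it turned to 0.32 (limma adjusted p = 0.737, with 0.342 to 0.945 over all alternatives). WT library 1 held 62% of the Peg13 reads. Trappc9 itself, a gene of vesicle traffic, read 2.72 and 2.67 RPKM in the WT libraries and 1.25 and 2.65 RPKM in the KO libraries, without the high value in WT library 1.

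Airn and Kcnq1ot1, the RNAs that silence their neighbours, were barely read. Airn (chr17:12741311-12860136, plus strand) had 4 and 1 reads in the WT libraries and 4 and 0 in the KO libraries, which is 1.84, 0.590, 1.23 and 0 RPKM. Kcnq1ot1 (chr7:143203458-143296549, minus strand) had 7, 6, 16 and 2 reads in the same order, over a gene of 93092 bases, and so had the lowest mean level per kilobase of the 7 over the 4 libraries, with values from 0.0266 to 0.189 RPKM. The groups overlapped for both, and what difference could have been detected at these counts was not examined. Igf2r, the receptor gene that Airn overlaps and silences, read 26.7 and 21.2 RPKM in the WT libraries and 29.8 and 23.3 RPKM in the KO libraries (limma log2 fold change 0.14, adjusted p = 0.920). Cdkn1c, a cell cycle inhibitor silenced through Kcnq1ot1, had 8 and 1 reads in the WT libraries and 2 and 1 in the KO libraries (limma adjusted p = 0.697).

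The 3 long RNAs of the Dlk1-Dio3 domain were also under 1 RPKM on average. Meg3 (chr12:109541001-109571726, plus strand), the most upstream of the 3, had 5 and 2 reads under the WT label and 3 and 0 under the KO label. Its values of 0.458 and 0.235 RPKM against 0.183 and 0 RPKM did not overlap, and the lower WT value rested on 2 reads (exact Poisson 95% interval 0.242 to 7.22). Both WT values lay above both KO values for 20.3% of tested genes, a set that leaves out genes as weakly read as Meg3. Scaled to the recovered reads, Meg3 came to 7.71 and 3.11 RPM in the WT libraries and 4.26 and 0 RPM under the KO label, where the groups overlapped. Rian (chr12:109603808-109661716, plus strand), the snoRNA host, was the most even of the 7, with 9, 6, 13 and 7 reads and levels from 0.271 to 0.467 RPKM. The length given for Rian in the deposited table, 31981 bases, was above the 18234 exon bases of the annotation used here, and reads could not be counted anew on the shorter model. Mirg (chr12:109729764-109749460, plus strand), the microRNA host, had 3 reads in WT library 2 and 0 in the other 3 libraries.

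Whether a small RNA inside these genes could be seen went with its overlap with exons. Of 4703 small RNA genes of the table that no exon of another gene overlapped, 599 had at least 1 read (12.7%), and of 314 overlapped in part, 40 had one (12.7%). Of 516 wholly under exons of another gene on the same strand, 1 had a read (0.194%), and of 180 wholly under exons on the opposite strand only, none did. For microRNA genes alone the counts were 266 of 1618 without overlap, 25 of 185 with overlap in part, and 0 of 283 and 0 of 121 for the wholly covered classes. Small RNA genes wholly under exons of another gene thus hardly ever held a read, whichever the strand.

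**Figure D3:**
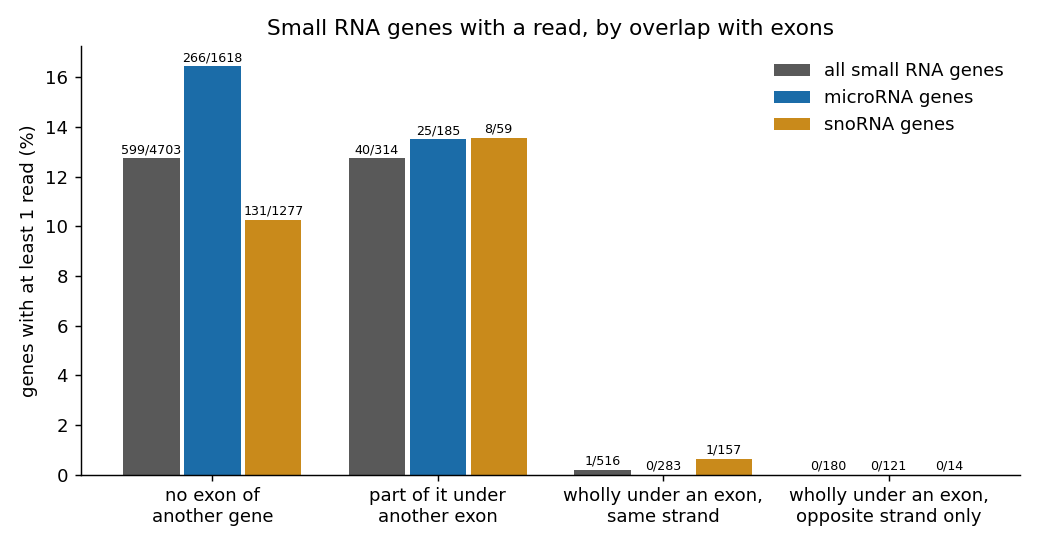
Percent of small RNA genes of the table with at least 1 read in the 4 libraries, by overlap with exons of another gene, for all small RNA genes, microRNA genes and snoRNA genes (counts above the bars). The bars stand between 10.3% and 16.4% without overlap or with overlap in part, and between 0% and 0.637% for the wholly covered genes.

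Mir675, in the H19 exon, was one of the wholly covered genes and was listed at 0 in all 4 libraries. A 0 at this gene carries no information on miR-675, and whether a fragment from the 84 shared bases was dropped or given to H19 cannot be read from the table. The same holds for Mir770 and Mir1906-1, which lie wholly in Meg3 exons, and for 9 of the 18 small RNA genes inside Rian, all of them snoRNAs. For Rian this number rests on the annotation used here and may differ in the longer gene model behind the deposited values. A further 141 exon bases of H19 lay under exons on the opposite strand, as did 1228 of Meg3 and 1119 of Kcnq1ot1, and reads there may likewise be missing from the long RNA. Peg13, Airn, Rian and Mirg had no such bases.

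Small RNA genes held most of the countable reads at Mirg. Its span held 14 small RNA genes on its strand, of which 6 had reads, 1055 in all, against the 3 reads of the long RNA. The 5 with wholly covered positions, among them Mir134, Mir377, Mir410 and Mir485, had none. Small RNA genes took 100% of the reads of the locus in 3 libraries and 99.5% in WT library 2 (Wilson 95% interval 98.6% to 99.8%), where all 3 reads of the long RNA were found.

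Mir541, a microRNA gene with no exon of another gene over it, had the most reads of the locus, 129 and 442 in the WT libraries and 69 and 104 in the KO libraries. It read 2378 and 10424 RPKM under the WT label and 845 and 1431 RPKM under the KO label, with a limma log2 fold change of -2.18 (SE 0.92, adjusted p = 0.675). Mir382, of which 2 bases lay under a Mirg exon, followed with 56, 180, 17 and 27 reads and a log2 fold change of -2.91 (SE 0.86, limma adjusted p = 0.650). Mir369 had 4, 14, 4 and 5 reads (limma log2 fold change -1.41, adjusted p = 0.692). For these 3 genes both WT values in RPKM lay above both KO values, as for 20.3% of all tested genes, and WT library 2 was the highest. Mir412 had 2 reads, and Mir154 and Mir496a had 1 each. Outside the span, Mir381 had 75, 107, 34 and 34 reads, and Mir673, which lies 264 bases past Meg3, had 8, 12, 3 and 1 reads.

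The summed small RNA signal of the Mirg locus was 315 and 1350 RPM, on the authors' library size, in the WT libraries and 100.3 and 171 in the KO libraries, 6.14-fold higher on average under the WT label. The exact permutation test gave p = 0.33, two-sided, the smallest that 2 against 2 libraries allow. The log2 ratio of this signal, KO against WT, was -2.62. It was -1.91 with each library scaled to the same sum of reads, and -1.22 without WT library 2. MicroRNA genes as a class also held a larger part of the reads under the WT label, as given above, so the locus was also set against that class. Per 1000 reads on microRNA genes, the locus took 6.81 and 5.90 in the WT libraries and 5.58 and 7.45 in the KO libraries. On this scale, chosen after the data were seen, the groups overlapped, with means of 6.35 ± 0.647 (SD, n = 2) and 6.51 ± 1.32 (SD, n = 2) and an exact permutation p of 1. Mir541 took 4.62 and 4.10 per 1000 in the WT libraries against 4.23 and 5.61 per 1000 in the KO libraries. Mir382 took 2.01 and 1.67 per 1000 against 1.04 and 1.46 per 1000, where the groups did not overlap (exact permutation p = 0.33, the smallest possible). On this scale both WT values lay above both KO values for 8.93% of the 291 tested microRNA genes, and both KO values above both WT values for 23.4%. For Mir369 the order turned around, with 0.143 and 0.130 per 1000 in the WT libraries below the 0.245 and 0.270 per 1000 of the KO libraries (exact permutation p = 0.33, the smallest possible).

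**Figure D4:**
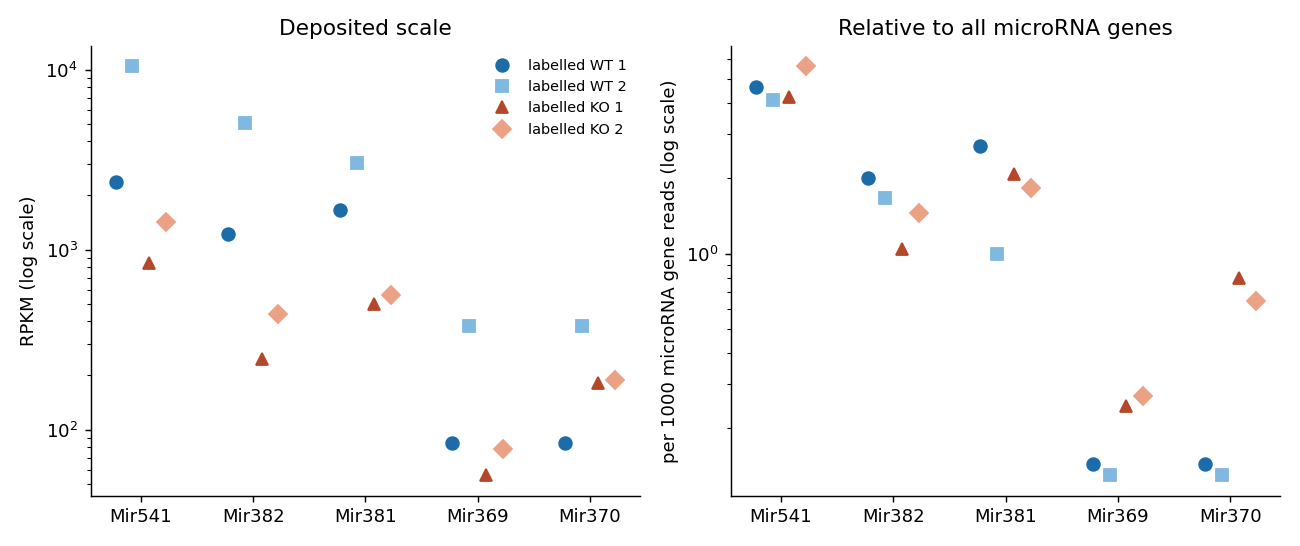
Level of 5 microRNA genes in each library, as RPKM (left) and per 1000 reads on all microRNA genes (right), both on log axes with 1 point per library. For Mir541 the WT points lie above the KO points on the left and among them on the right, and for Mir369 and Mir370 the KO points lie above the WT points on the right only.

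At Rian nearly all small RNA reads were on 1 microRNA gene. Its span held 18 small RNA genes on its strand, of which Mir370 had 43 reads, the snoRNA gene Gm24564 had 1 and the other 16 had none. Of these 16, 9 were wholly covered by exons of the annotation used here, and the longer gene model behind the deposited values may cover others. Mir370 had 4, 14, 13 and 12 reads, which is 84.0 and 376 RPKM under the WT label and 181 and 188 RPKM under the KO label, and the groups overlapped (limma log2 fold change 0.05, adjusted p = 0.987). Per 1000 reads on microRNA genes it took 0.143 and 0.130 in the WT libraries and 0.798 and 0.647 in the KO libraries, without overlap, as for the 23.4% of microRNA genes with both KO values higher (exact permutation p = 0.33, the smallest possible). Small RNA genes took 30.8% of the reads of the locus in WT library 1 (Wilson 95% interval 12.7% to 57.6%), 70% in WT library 2 (48.1% to 85.5%), 51.9% in KO library 1 (34.0% to 69.3%) and 63.2% in KO library 2 (41.0% to 80.9%). These intervals overlap throughout, and the exact permutation p between the groups was 1. At Airn the single small RNA gene had 0 reads, and Peg13 and Kcnq1ot1 held none.

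No protein-coding neighbour and no other imprinted gene passed the test. Of 32 listed neighbours of the 7 genes, 12 were tested, none passed the limma test at an adjusted p under 0.05 (smallest 0.660), and 1 was lower at an unadjusted p under 0.05, as were 4.46% of all tested genes. Their median log2 fold change was -0.10 beside 0.000259 over all tested genes. The most abundant neighbour, Cd81, a membrane protein gene of the Kcnq1 domain, read 99.7 and 115 RPKM in the WT libraries and 195 and 192 RPKM in the KO libraries (limma log2 fold change 0.85, SE 0.46, adjusted p = 0.690). Nap1l4, a histone chaperone gene of the same domain, read 17.7 and 17.2 RPKM against 27.4 and 19.2 RPKM.

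Of 38 other imprinted protein-coding genes in the table, 21 were tested and none passed (smallest limma adjusted p = 0.672), with 13 below 0, 8 above 0 and a median of -0.06. Dcn, the proteoglycan decorin, which is also on the fibroblast list, read 240 and 126 RPKM in the WT libraries and 460 and 171 RPKM in the KO libraries. Grb10, an adaptor of growth factor receptors, read 20.1 and 20.3 RPKM against 17.6 and 16.8 RPKM, and H13, a membrane protease, read 6.91 and 7.65 RPKM against 8.81 and 7.94 RPKM.

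Other well-known noncoding RNAs held several patterns over the 4 libraries. Of 26 listed genes in the table, 16 were tested and none passed the limma test (smallest adjusted p = 0.471), with a median log2 fold change of -0.52, and 3 were lower at an unadjusted p under 0.05, beside 4.46% of all tested genes. Rpph1, the RNA of RNase P, read 2262 and 2974 RPKM in the WT libraries and 525 and 605 RPKM in the KO libraries, with both WT libraries high, and was the 1 gene of the list past the threshold in limma-voom on recovered reads (adjusted p = 0.0343). Malat1, a nuclear RNA, read 399 and 67.8 RPKM in the WT libraries and 363 and 66.3 RPKM in the KO libraries, so each group held a high and a low library. Epb41l4aos read 7.72 and 64.2 RPKM against 17.9 and 25.9 RPKM. Of 12 further noncoding genes in the table, on a list drawn mainly from imprinted regions, 3 were tested and none passed (smallest limma adjusted p = 0.712). Among these, Mir335, a microRNA gene within Mest, had 11 and 145 reads in the WT libraries and 15 and 35 in the KO libraries, Mir296 had 0, 3, 0 and 1 reads, and Zfas1, a snoRNA host, had 13, 15, 8 and 20 reads.

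**Figure D5:**
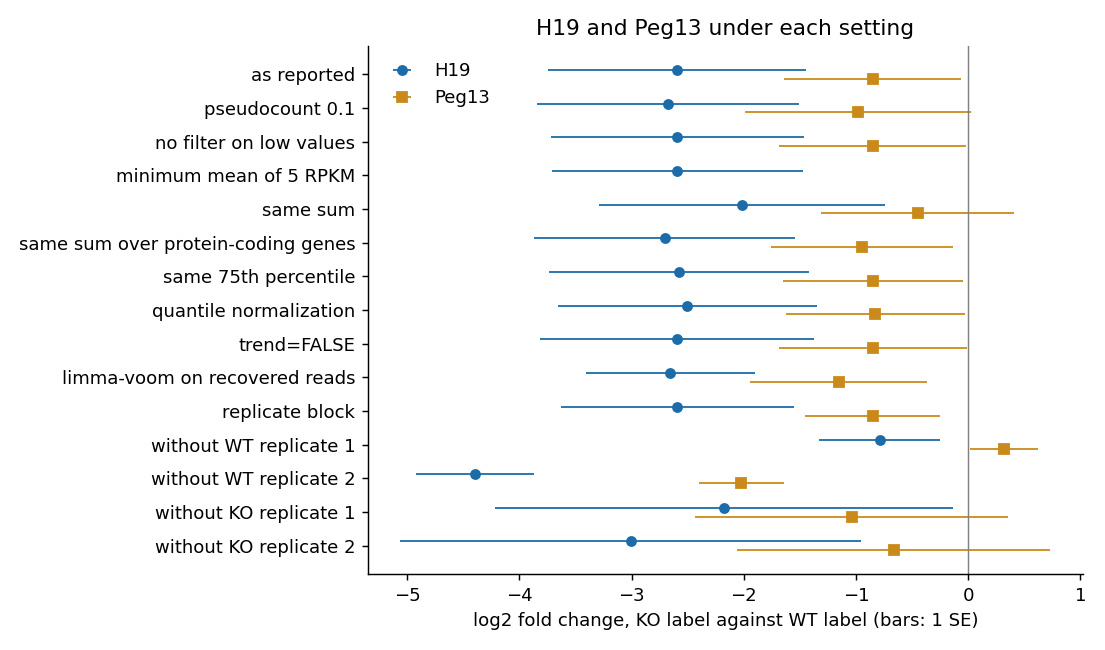
Log2 fold change of H19 and Peg13, KO label against WT label, with 1 SE, under the reported fit and each alternative. H19 stays below 0 throughout and ranges from -4.40 to -0.79, and Peg13 crosses 0 without WT replicate 1, where it is 0.32.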

How the data were processed

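The authors deposited RPKM values per gene and library with a gene length in bases. Their methods name filters on read quality, rRNA and tRNA, TopHat2 mapping, an Ensembl release on mm10 and HTSeq counting. Tool versions, strand and overlap settings are not given in the sources used here. In each library 100% of the products of RPKM and length were multiples of 1 step (tolerance 0.01), which gave back the reads. These totalled 648386, 642429, 704006 and 650210, while the library sizes divided by were 602863, 471136, 906990 and 807705. Intervals (Wilson, exact Poisson) cover counting error only.

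The fit was limma 3.58.1 (R 4.3.3, trend=TRUE) on log2(RPKM + 1), a scale that understates changes of weakly read genes, with a filter at a mean of 1 RPKM and Benjamini-Hochberg adjustment. A run of the fit on simulated data changed only well-read genes, so it does not show how the fit performs for weakly read members. Small RNA genes of a locus lay wholly inside the member on its strand. Exons were from GENCODE M21 (GRCm38) rather than that release, and M21 held 99.8% of the identifiers. Named were the 7 genes, Mir675, the 5 small RNA genes with most reads per locus, the 3 genes with the highest mean in each list other than the marker lists, which are given as sums, and the 3 nearest in profile. Genes named beyond these (Igf2, Cdkn1c, Trappc9, Myog, Acta1, Actc1, Ckm, Tnnc1, Mymk, Mymx, Tnnc2, Mir381, Mir673 and examples of covered small RNA genes) were chosen after their values were seen. Members and lists were chosen with earlier results of these data known.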

Additional observations from a re-analysis of the deposited data

How the results depend on the processing

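Neither H19 nor Peg13 passed the threshold in any setting tried. Leaving out each library in turn moved H19 between -4.40 and -0.79 and Peg13 between -2.02 and 0.32 (log2 fold change, limma adjusted p from 0.309 to 0.945). WT library 1 set the H19 value and the direction of Peg13. On recovered reads limma-voom gave -2.65 for H19 (unadjusted p = 0.00204, adjusted p = 0.190), and scaling to the same sum gave -2.02, where the median of all tested genes moved to 0.50. Peg13 was not tested at a minimum of 5 RPKM. The counts of genes past an adjusted p under 0.05 (limma), 11 lower and 1 higher, were 0 and 0 with a pseudocount of 0.1, with no filter on low values, with a minimum of 5 RPKM, with the same sum, with trend=FALSE, with the replicate block and without each library in turn (from 0 to 0), and 39 and 0 with limma-voom. At an unadjusted p under 0.05 they were 507 lower and 325 higher in the reported fit, and from 170 to 791 lower and from 178 to 1693 higher elsewhere. The planned quasi-likelihood count test was not run, and limma-voom was the only test made on the recovered reads.

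The replicate numbers were shared between groups as numbers only. The differences between replicates 1 and 2 correlated at 0.0575 between the groups, and with the replicate block H19 stayed at -2.59 (limma adjusted p = 0.667).

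For the small RNA genes of Mirg, the log2 ratio of -2.62 became -1.91 with the same sum. It was 0.0362 when scaled to the sum over microRNA genes, a scaling chosen after seeing the data, and ranged from -3.32 to -1.22 without each library. For Rian, -0.26 became 0.46 with the same sum, 2.46 with the sum over microRNA genes, and ranged from -0.97 to 1.19 without each library. The share of reads on small RNA genes, KO minus WT, was 7.12 percentage points at Rian, from -12.5 to 26.7 without each library, and 0.235 at Mirg, from 0 to 0.469 without each library. The cause of these shifts was not tested. With 2 libraries a group, exact permutation tests could not go below p = 0.33, and the 5 long RNAs under 1 RPKM held 3 to 35 reads each.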
